A study of Canis lupus familiaris with 21 samples.

Results

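ERV1 and other long terminal repeat (LTR) families were described in 2 kinds of RNA from companion dogs: that of the prefrontal cortex, and that of plasma EVs, the extracellular vesicles that cells release into blood. A family was taken where its row in the deposited tables carried the repeat class LTR and a family label that does not begin with ERVL. Of 822 repeat families among 35803 features in each table, 142 met this rule: 108 carried the label ERV1, 25 the label Gypsy and 9 the bare label LTR. A family entered the analysis of a tissue where its mean normalised count over all libraries was at least 10. That left 132 of 142 families in cortex (99 ERV1, 24 Gypsy and 9 LTR) and 141 of 142 in EVs (107 ERV1, 25 Gypsy and 9 LTR), and the 132 cortex families were all among the EV families. The rule uses the mean over all libraries and no difference between groups.

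The groups were dogs with canine cognitive dysfunction (CCD, a dementia-like syndrome of late life), old dogs and young dogs, with 3 cortex libraries and 4 EV libraries each. Libraries are named by group and label, such as CCD cortex_163. The cortex protocol selected polyadenylated RNA, whereas the EV protocol took total RNA and removed ribosomal RNA, so tissue and library kind cannot be told apart. Sex, breed and age in years were not used here. Each library of a tissue has a label number of its own; nothing says what the number stands for, so p-values measure the spread between these libraries.

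ERV1 elements are remnants of gammaretrovirus-like proviruses that entered the germ line, and a complete provirus has an internal part with viral genes between 2 LTRs. The LTRs carry the promoter and the polyadenylation signal, and most copies in a mammalian genome are single LTRs left after recombination. Gypsy families in mammals are much older retroelements that no longer move, and some of their genes were taken over by the host. In most mammalian tissues LTR elements are held silent by DNA methylation and by histone methylation that the corepressor TRIM28 brings to them, and many copies lie inside genes and are read along with the gene. In the names, an ending of -int or -I marks an internal part, and names that begin with Car or Cf or hold _CF mark families described in carnivores or in the dog. Each value is the sum of reads over every copy of a family, so it depends on the copies' number and length, and levels are not compared between families except as shares of reads.

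Cortex libraries held 14.9 to 31.4 M counted reads and EV libraries 27.5 to 45.0 M. CCD cortex libraries were the shallowest, with 14.9 to 18.9 M, against 24.2 to 27.5 M in old cortex and 22.3 to 31.4 M in young cortex. Every neuronal marker listed was found in cortex. In EVs the sums of 3 platelet, 3 red cell and 4 leukocyte markers were 186 to 769 normalised counts per library. The 7 neuronal markers summed to 1111 to 2122 and the 8 markers of meninges and fibroblasts to 1475 to 4380. These sums cover unlike numbers of genes, so they do not rank the cell types. No CCD, old or young comparison in either tissue gave a feature with an adjusted p under 0.05, so no member family is reported as changed.

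In cortex, the families took a larger share of reads in CCD libraries than in old libraries. The share was 0.216%, 0.176% and 0.149% in CCD cortex_163, cortex_354 and cortex_358, against 0.130%, 0.127% and 0.141% in old cortex_250, cortex_253 and cortex_264. In young cortex it was 0.142%, 0.149% and 0.111%. The CCD and old libraries did not overlap, while CCD cortex_358 and young cortex_353 were almost equal. All repeat families together held 5.53% to 7.91% of reads in CCD cortex, 4.44% to 5.18% in old cortex and 4.19% to 5.64% in young cortex. Within the repeat reads, the share of ERV1 and other LTR families was 2.69% to 2.73% in CCD cortex, 2.72% to 2.86% in old cortex and 2.64% to 2.72% in young cortex. CCD libraries were apart from old libraries in the share of all repeats, and overlapped with them in the part of repeat reads on these families.

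**Figure D1:**
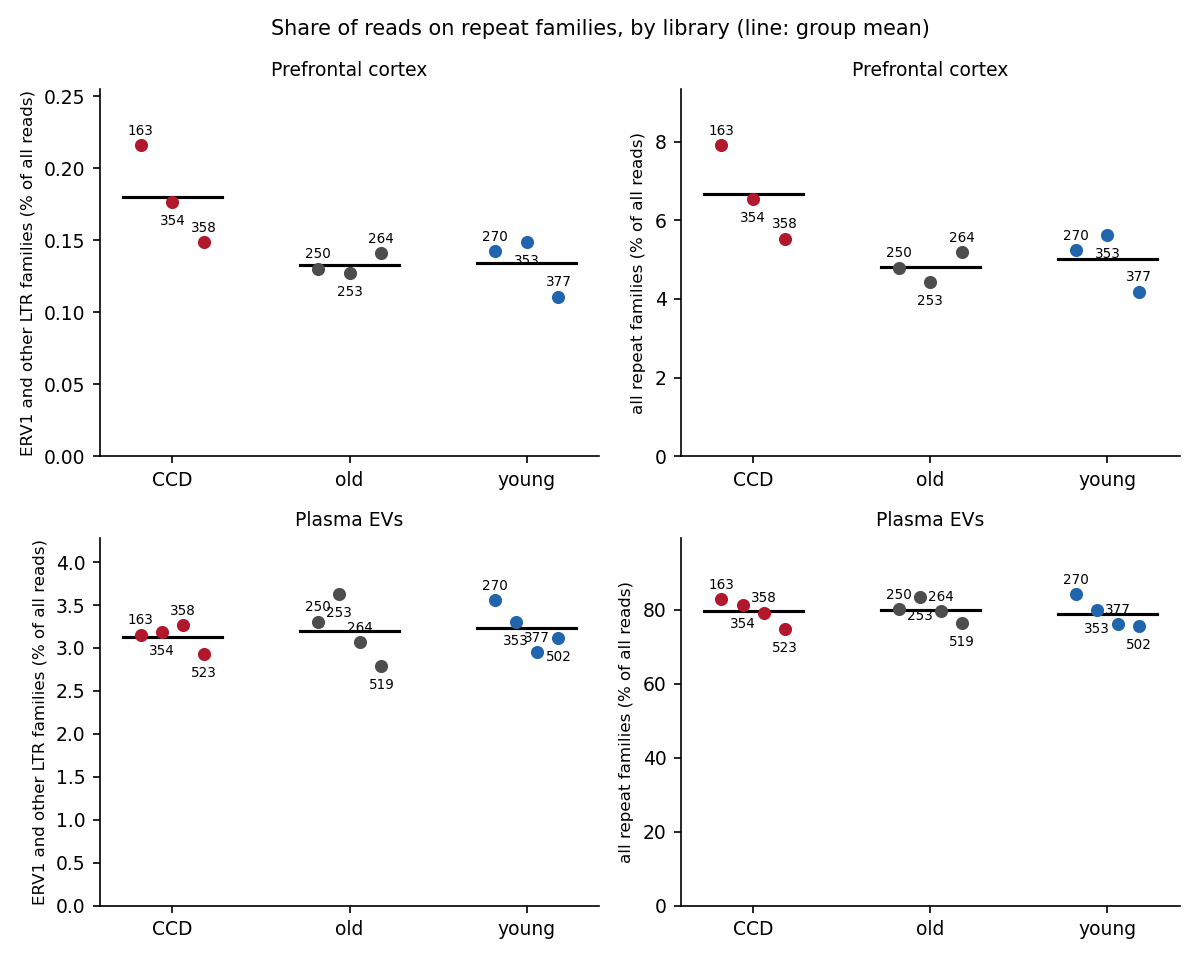
Percent of all counted reads on ERV1 and other LTR families (left) and on all repeat families (right) in each library of cortex (top) and plasma EVs (bottom); points are libraries with their label numbers and lines are group means. The CCD cortex libraries lie between 0.149% and 0.216%, above the old cortex libraries at 0.127% to 0.141%, and the EV groups overlap.

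Sums of cell type markers also differed between cortex libraries, and not all of them set the CCD group apart. The sum of the neuronal markers, 7 of 7 listed and none at 0 in any library, was 117010 to 133960 normalised counts in CCD cortex and 150710 to 162860 in old cortex. In young cortex it was 106670 to 167210, which spanned both. The sum of the oligodendrocyte markers, 2 of 4 listed, was 231220 to 603570 in CCD cortex and 181060 to 255020 in old cortex, which overlapped. It was 28747 to 204990 in young cortex. That of the 4 astrocyte markers was 71155 to 76690 in CCD cortex and 47676 to 65258 in old cortex. Young cortex, at 71392 to 85149, overlapped with CCD cortex in the astrocyte sum and lay above old cortex. The 8 markers of meninges and fibroblasts summed to 20208 in CCD cortex_358, 41065 in young cortex_353 and 25333 in young cortex_377, against 297 to 1667 in the other cortex libraries, with FMOD at 0 in some. The part of these markers and of depth in the results below was not tested. In bulk tissue, fewer cells of a type and less RNA per cell cannot be told apart.

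Across the 132 families of cortex, most lay above 0 in CCD against old. Log2 differences were positive for 110 of 132 families, with a median of 0.34, beside -0.08 over all 19710 features tested. Medians of other repeats were close to this: 0.33 over the 568 other repeat families, 0.31 over 152 ERVL and MaLR families, 0.27 over 249 DNA transposons and 0.47 over 129 LINEs. None of the 132 passed limma's test with adjustment over all features tested, and the share of all features that passed was 0.0%. At an unadjusted p under 0.05, 18 of 132 families (13.6%) were higher in CCD and 1 (0.758%) was lower, beside 4.45% and 10.6% of all features. CCD and old libraries did not overlap for 43 families (32.6%) that were higher in CCD and 1 that was lower, beside 12.5% and 21.9% of all features. When libraries were scaled to their repeat reads instead of all reads, the median of the families turned to -0.10 and that of all features to -0.53, and 2 families were higher at an unadjusted p under 0.05. The higher values of most families in CCD cortex were thus relative to all reads and not to repeat reads.

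**Figure D2:**
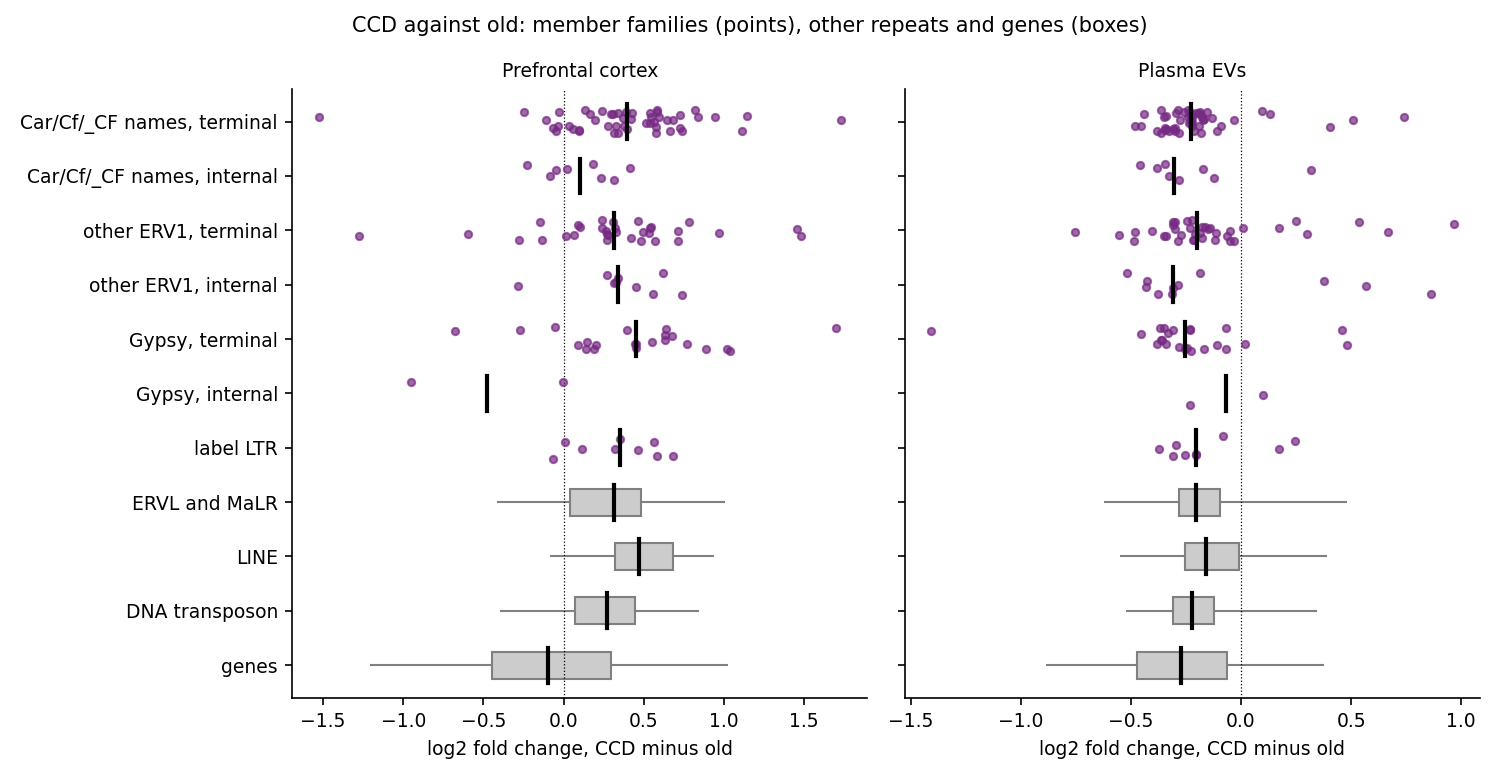
Log2 difference, CCD minus old, in cortex (left) and plasma EVs (right); points are ERV1 and other LTR families by name, label and part with the median as a bar, and grey boxes give the quartiles, median and 5th to 95th percentiles of other repeats and of genes. In cortex the medians of most sets lie near 0.3 to 0.5, as for ERVL and MaLR, LINE and DNA transposon families, while the median gene is at -0.10.

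The largest difference between CCD and old cortex belonged to CarLTR3, a carnivore ERV1 terminal repeat and one of the 5 families with the highest mean. It had 5568, 1369 and 1915 normalised counts in CCD cortex_163, cortex_354 and cortex_358, against 687, 1222 and 475.5 in old cortex and 748, 748 and 505 in young cortex. Every CCD library was above every old and young library, and CCD cortex_163 stood far above the other CCD libraries. Its log2 difference was 1.73 ± 0.48 (SE) against old, with a limma adjusted p of 0.286, and 1.90 ± 0.48 against young, with an adjusted p of 0.356. DESeq2 on the recovered reads gave CarLTR3 an adjusted p of 0.0203 against old and 0.0058 against young. Without CCD cortex_163 the difference was 1.14 against old and 1.30 against young. CarLTR3 took 11.2% of the reads of all 132 families in its highest library and 1.47% in its lowest, the widest range of the 5 families with the highest means.

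Among the cortex families with the highest means, the LTRs of dog proviruses stood higher in CCD than in old libraries, and internal parts less so. CfERV1a_LTR had 2075, 2006 and 1421 normalised counts in CCD cortex, 1361, 1167 and 1128 in old cortex and 1471, 1175 and 586 in young cortex, so that CCD and old libraries were apart and CCD and young libraries overlapped. CfERV1z_LTR had 2081, 1560.4 and 1284 in CCD cortex and 932, 1042.5 and 1271 in old cortex, apart by a narrow margin. The log2 differences were 0.57 ± 0.31 for CfERV1a_LTR and 0.58 ± 0.31 for CfERV1z_LTR (SE). The internal part CfERV1-int had 671, 776 and 568 in CCD cortex and 669, 550.3 and 764 in old cortex, which overlapped throughout. CarLTR1-int, the family with the highest share of member reads in cortex at 4.40%, had 1731, 1676 and 1407 in CCD cortex and 1293, 1398 and 1536 in old cortex. CarLTR7 had 1989, 1415 and 1436 in CCD cortex and 1070.0, 946 and 1152 in old cortex, a log2 difference of 0.60 ± 0.21 (limma adjusted p = 0.292).

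The dog family CfERVF2 likewise had different values for its parts. Its terminal repeat CfERVF2_LTR had 231, 309.9 and 206 normalised counts in CCD cortex, 111, 172 and 134 in old cortex and 144.8, 163.3 and 104.2 in young cortex, and every CCD library was above every other library. The log2 difference was 0.84 ± 0.30 (SE) against old, with a limma adjusted p of 0.294, and 0.85 ± 0.30 against young, with an adjusted p of 0.356. CfERVF2-int had 169, 236 and 204 in CCD cortex and 195, 219 and 225 in old cortex, with full overlap. Over all families with a carnivore or dog name, the median log2 difference was 0.39 for 50 terminal repeats, of which 43 were positive, and 0.10 for 8 internal parts, of which 5 were positive. For the other ERV1 families the medians were 0.31 for 32 terminal repeats and 0.34 for 9 internal parts. The difference between the parts was not tested.

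CarERV3_LTR and CarERV2d2_LTR, both carnivore terminal repeats, were among the families with the smallest p in CCD against young. CarERV3_LTR had 317, 254 and 211 normalised counts in CCD cortex, 170, 176 and 184 in old cortex and 164, 154 and 118 in young cortex. CarERV2d2_LTR had 169, 123 and 124 in CCD cortex, 86.9, 107 and 72.0 in old cortex and 69.3, 84.7 and 62.4 in young cortex. In both, the 3 CCD libraries were above all others. The log2 differences against young were 0.83 ± 0.26 and 0.93 ± 0.32 (SE), each with a limma adjusted p of 0.356.

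ERV1 families without a carnivore or dog name had values on both sides of 0 in cortex. LTR109B had 207, 183 and 110 normalised counts in CCD cortex, 61.0, 40.9 and 73.7 in old cortex and 83.8, 92.7 and 69.7 in young cortex. Its log2 difference of 1.48 ± 0.37 (SE) against old had the smallest p of all member families, with a limma adjusted p of 0.286. MER89 had 407, 338 and 278 in CCD cortex, 171, 199 and 219 in old cortex and 257, 352 and 212 in young cortex. CCD libraries were thus above old libraries for MER89 (log2 difference 0.78 ± 0.27), while young libraries lay across both. Others were lower in CCD: LTR109A2 had 22.7, 27.8 and 76.8 in CCD cortex and 116, 51.4 and 122 in old cortex, and MER92C had 23.9, 9.25 and 12.2 in CCD cortex, 18.4, 19.0 and 29.1 in old cortex and 39.3, 36.3 and 26.4 in young cortex. CCD and old libraries overlapped for LTR109A2 and MER92C, and CCD libraries lay below young libraries for MER92C (log2 difference -1.20 ± 0.53, limma adjusted p = 0.377). The carnivore terminal repeat CarERV2c1_LTR, at 27.7, 0 and 15.8 in CCD cortex and 22.6, 13.3 and 33.4 in old cortex, was the only family with a library at 0, and its log2 difference of -1.53 against old was -0.042 without CCD cortex_354.

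**Figure D3:**
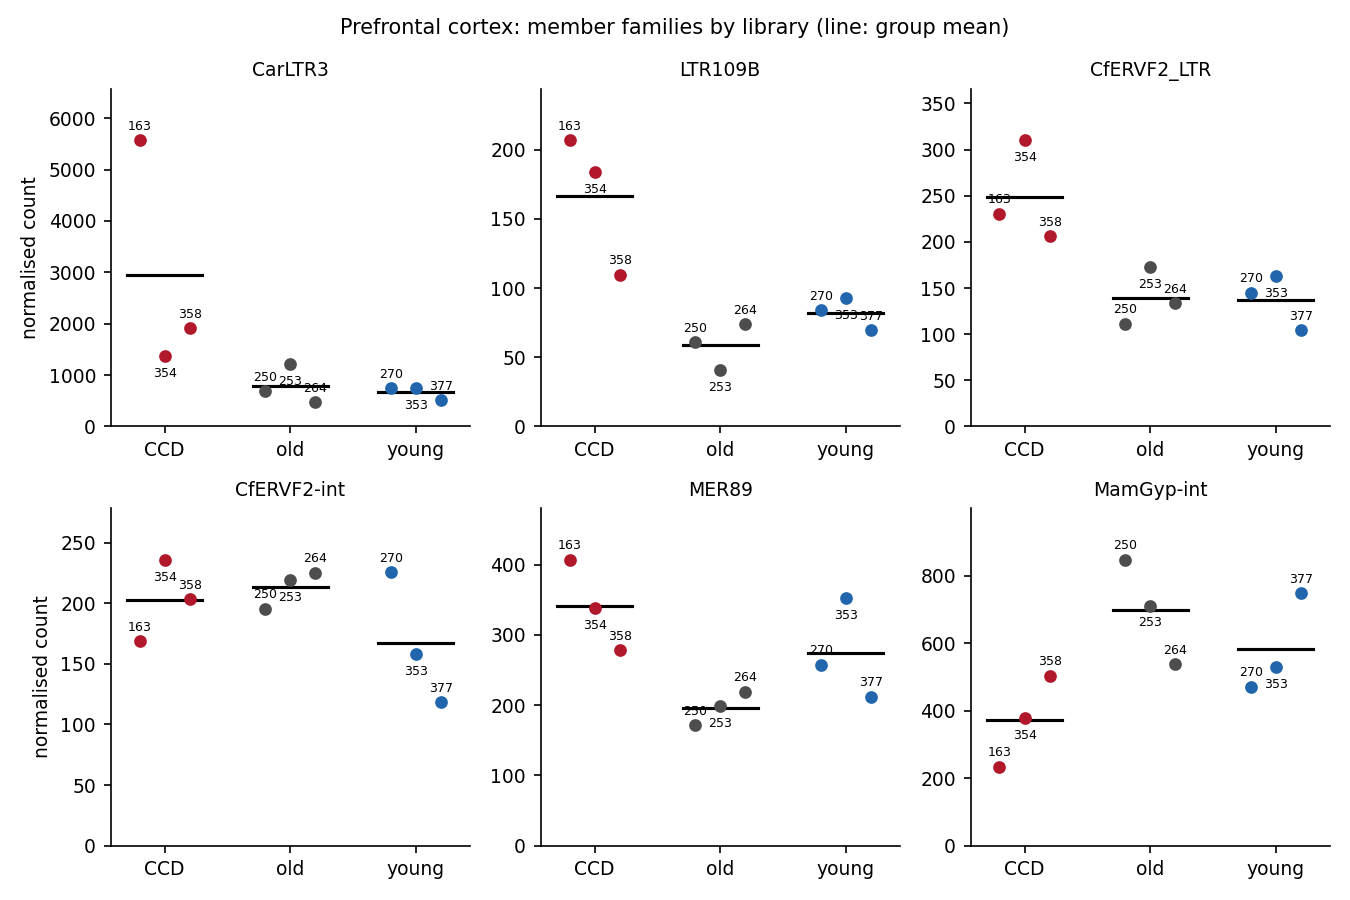
Normalised counts of 6 families in each cortex library, with axes from 0; points are libraries with their label numbers and lines are group means. CarLTR3, LTR109B, CfERVF2_LTR and MER89 are higher in every CCD library than in every old library, CfERVF2-int overlaps, and MamGyp-int is lower in every CCD library than in every old library.

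In the Gypsy group, most terminal repeats had higher values in CCD than in old cortex, and the 2 internal parts did not. The median log2 difference was 0.45 over 22 terminal repeats, 19 of them positive. MamGypsy2-LTR had 166, 213 and 107 normalised counts in CCD cortex, 70.2, 73.3 and 84.0 in old cortex and 65.1, 97.8 and 69.7 in young cortex, with every CCD library above the rest. Its log2 difference was 1.04 ± 0.35 (SE) against old and 1.02 ± 0.35 against young, with limma adjusted p of 0.286 and 0.356. The matching internal part, MamGypsy2-I, had 621, 685 and 478 in CCD cortex and 573, 598 and 595 in old cortex, which overlapped, with a log2 difference of 0.00 ± 0.23. MamGyp-int, another internal part, had 234, 378 and 503 in CCD cortex, 847, 711 and 537 in old cortex and 470.5, 528 and 748 in young cortex. It was the one family whose CCD libraries were all below the old ones, with a log2 difference of -0.95 ± 0.31 and a limma adjusted p of 0.286.

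LTR81, a Gypsy terminal repeat of few reads, had 40.3, 47.8 and 45.1 normalised counts in CCD cortex, 14.2, 7.62 and 19.7 in old cortex and 30.0, 10.1 and 15.4 in young cortex. Its log2 difference against old was 1.70 ± 0.57 (SE; limma adjusted p = 0.286), the second largest after that of CarLTR3. Of its relatives by name, LTR81C and LTR81AB also had every CCD library above every old library, at log2 differences of 1.02 ± 0.40 for LTR81C and 0.40 ± 0.46 for LTR81AB, while LTR81A was at -0.27 ± 0.34 and LTR81B at 0.44 ± 0.33. MamGypLTR4 had 108, 64.8 and 60.9 in CCD cortex and 144.5, 95.2 and 129 in old cortex, and the groups overlapped.

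The 9 families with the bare label LTR had a median log2 difference of 0.35 in CCD against old cortex, with 8 above 0 and none at an unadjusted p under 0.05. The highest of them by mean, LTR91, had 339, 318 and 212 normalised counts in CCD cortex and 255, 289 and 305 in old cortex, with overlap. LTR91A had 289.7, 308 and 149 in CCD cortex and 137, 120.0 and 194 in old cortex, a log2 difference of 0.68 (limma adjusted p = 0.359). CCD cortex_358 was the lowest CCD library in both.

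Many of the highest values came from CCD cortex_163. It was the highest of the 9 libraries for 64 of 132 families, CCD cortex_354 for 25 and CCD cortex_358 for 8, against 3, 2 and 6 in old cortex and 12, 9 and 3 in young cortex. On the log2 scale, the median family lay, against its own mean over the cortex libraries, at 0.50, 0.26 and 0.01 in the 3 CCD libraries, -0.16, -0.21 and -0.02 in the old libraries and -0.03, 0.03 and -0.34 in the young libraries. CCD cortex_358 and old cortex_264 therefore differed little in this measure. Without CCD cortex_163 the median log2 difference against old was 0.29, and without CCD cortex_358 it was 0.48.

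No family stood out between old and young cortex. The median log2 difference was -0.01, beside 0.03 over all features, with 61 families above 0 and 71 below. None had an adjusted p under 0.05 by limma (0.0% of all features), and none an unadjusted p under 0.05 in either direction, beside 2.84% of all features higher and 3.83% lower. By edgeR and DESeq2 none passed either. Old and young libraries did not overlap for 2 families higher in old and 4 lower, beside 6.45% and 5.52% of all features. MER89 had the smallest p, with a log2 difference of -0.45 ± 0.27 (SE; limma adjusted p = 0.846). LTR109B was at -0.51 ± 0.37, CarLTR1A2A at -0.38 ± 0.27, CfERVF2-int at 0.40 ± 0.29 and MamRep1527 at 0.44 ± 0.33. None of these exceeded the spread between libraries by this test.

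CCD against young cortex shares the CCD libraries with CCD against old cortex. The median log2 difference was 0.36 over 132 families, of which 106 were above 0, beside -0.08 over all features and 0.29 over the 568 other repeat families. With scaling to repeat reads the median was -0.042. Under limma none had an adjusted p under 0.05 (0.0% of all features). At an unadjusted p under 0.05, 17 families were higher and 1 was lower, beside 4.55% and 8.52% of all features, and libraries did not overlap for 30 families higher and 1 lower, beside 5.73% and 7.95%. Of the 568 other repeat families 14.1% were higher and 0.352% lower at that p, and 16.9% and 0.528% did not overlap. With scaling to repeat reads 1 of the 132 families was higher at that p. The 1 lower of the 132 was MER92C, and MamGyp-int, at -0.68 ± 0.31 (SE), overlapped with young libraries.

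In EVs repeat reads made up most of each library, and the families took a similar share in every group. All repeat families held 74.9% to 82.9% of reads in CCD EVs, 76.3% to 83.6% in old EVs and 75.7% to 84.2% in young EVs. ERV1 and other LTR families held 2.93% to 3.27% in CCD EVs, 2.79% to 3.63% in old EVs and 2.95% to 3.55% in young EVs. The 3 groups overlapped throughout.

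The composition of these reads differed between the tissues. ERV1 families gave 86.6% of member reads in cortex and 82.7% in EVs, Gypsy families 10.7% in cortex and 13.6% in EVs, and families with the bare label LTR 2.77% in cortex and 3.69% in EVs. Families with carnivore or dog names gave 57.4% in cortex and 52.0% in EVs, and internal parts 22.0% in cortex and 24.4% in EVs. The 5 highest in cortex by mean were CarLTR1-int, CarLTR3, CfERV1a_LTR, CfERV1z_LTR and CarLTR7, and the 5 highest in EVs were MER34A_CF at 6.63% of member reads, CfERV1-int at 5.07%, CfERVF2-int at 4.14%, MER90a at 3.71% and CarERV4a_LTR at 3.59%. Over the 132 shared families Spearman's rho of the shares was 0.775, a description across families that share libraries, copy number and length. Of the 10 highest in each tissue, 4 were common: CarERV4a_LTR, CarLTR1-int, CfERV1z_LTR and MER34A_CF.

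Some families were spread very unevenly between the tissues. CarLTR3 was 3.84% of member reads in cortex and 0.607% in EVs, MER101B_CF was 5.72 times higher in share in cortex and MamGyp-int 5.17 times. In the other direction, LTR81 was 0.550% of member reads in EVs and 0.0718% in cortex, and CfERVF2-int was 4.14% in EVs and 0.581% in cortex, with CfERVF2_LTR 5.88 times and MamGypLTR3 6.82 times higher in EVs. In all, 21 families had a share over 2 times higher in cortex and 15 a share over 2 times higher in EVs. CarLTR3, MamGyp-int, LTR81 and CfERVF2_LTR had CCD and old libraries apart in cortex, and MER101B_CF and CfERVF2-int did not. Among all 132 families 32.6% were apart and higher in CCD cortex and 0.758% lower, beside 12.5% and 21.9% of all features. No link between the tissue shares and the groups was tested. The tables were normalised separately and the library kinds differ, so these ratios were not tested.

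**Figure D4:**
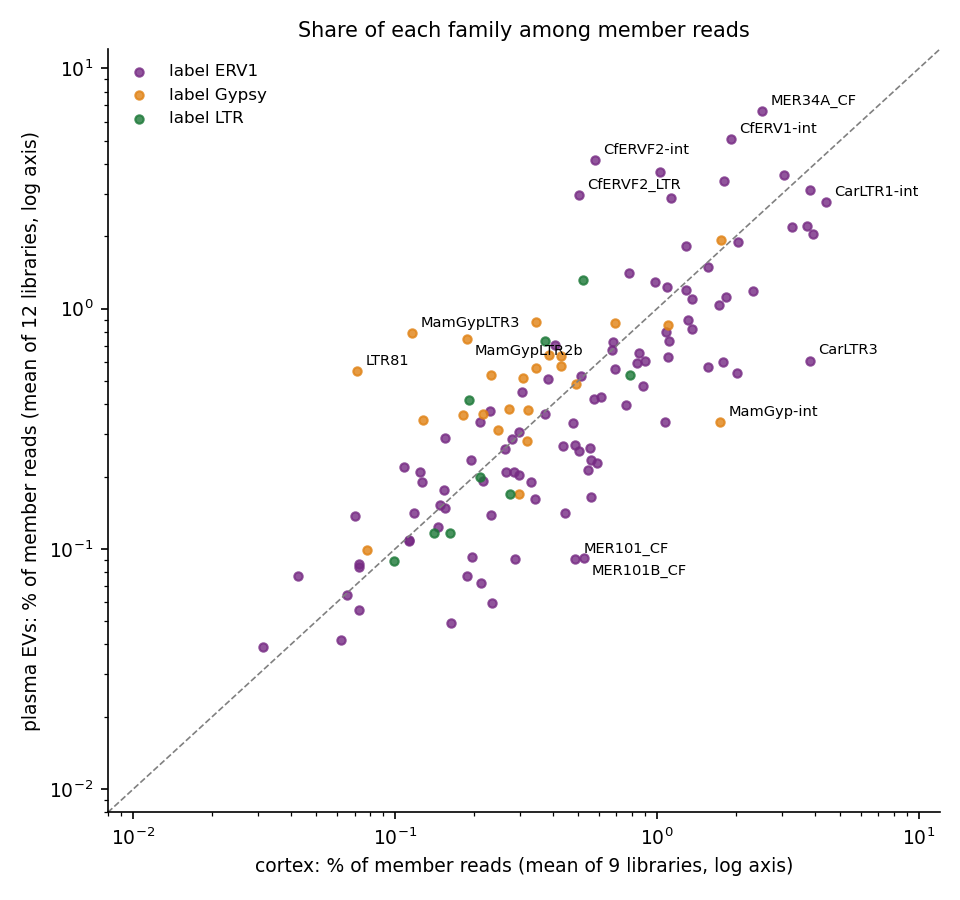
Share of each family among the reads of ERV1 and other LTR families, EVs against cortex on log axes, for the 132 families in both tables; colours give the family label and the dashed line marks equal shares. Most families lie near the line, CarLTR3 and MamGyp-int lie below it, and LTR81, CfERVF2-int and MamGypLTR3 lie above it.

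In EVs, CCD and old libraries differed as the whole table did. The median log2 difference of the 141 families was -0.23, beside -0.27 over all 32539 features tested and -0.20 over the 670 other repeat families, and 22 of 141 were above 0. With TMM scaling the median of all features was 0.01 and that of the families 0.052, so the lower values of most families in CCD EVs did not hold under that scaling. None of the families passed limma's test after adjustment (0.0% of all features). At an unadjusted p under 0.05, 6 were higher and 4 lower, beside 0.756% and 5.35% of all features, and libraries did not overlap for 6 families higher and 1 lower, beside 0.9% and 5.08%. The counts at an unadjusted p under 0.05 were 0 to 8 higher and 2 to 7 lower with 1 library left out, the 0 being without old EV_519, and TMM scaling gave 10 higher and 0 lower.

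The families that were higher in every CCD EV library than in every old EV library were CarERV4-int, LTR81, MER34-int, MER4B-int, MER90a and MamGypLTR2b, against the direction of the table's median. For LTR81, MER34-int, MER90a and MamGypLTR2b, the 2 highest of all EV values were those of CCD EV_523 and young EV_502, described below. LTR81 had 6537, 6302, 6655 and 7408 normalised counts in CCD EVs and 5107.5, 4637.5, 4579 and 4898 in old EVs, with a log2 difference of 0.48 ± 0.21 (SE; limma adjusted p = 0.766). MamGypLTR2b had 9450.4, 8622, 9207 and 11079 in CCD EVs and 7429, 6952, 7060.2 and 6394.5 in old EVs, a log2 difference of 0.46 ± 0.18. The carnivore internal part CarERV4-int had 24449, 23768, 22448 and 22127 in CCD EVs and 19838, 19465, 17450 and 17661 in old EVs, a log2 difference of 0.32 ± 0.14. Young EVs overlapped with CCD EVs for all of these 3, at 4366.5 to 10138 for LTR81, 6305 to 11186 for MamGypLTR2b and 19094 to 25042 for CarERV4-int.

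LTR81 and CarERV4-int were the only families whose CCD and old libraries were apart in both tissues, higher in CCD each time. In single tissues, 43 of 132 families were apart and higher in cortex and 6 of 141 in EVs. Of all features, 12.5% were apart and higher in cortex and 0.9% in EVs. The share of all features apart in both tissues was not computed. The count of families apart in both thus has no background beside it and is not read as a result about them. In cortex CarERV4-int had 747, 814 and 734 normalised counts in CCD libraries and 609, 559 and 685 in old libraries, with a log2 difference of 0.31 ± 0.19 (SE; limma adjusted p = 0.427), which turned to -0.15 with scaling to repeat reads. CarERV4-int was singled out in cortex after its values were seen. Label numbers recur between the tissues, so the tissues may share dogs, and their agreement cannot be taken as independent.

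The families with the smallest p among those lower in CCD EVs were LTR37B, CarLTR5 and LTR37-int. LTR37B had 7345, 6589, 6241 and 5595 normalised counts in CCD EVs, 6925, 9632, 8880.2 and 10781 in old EVs and 7441, 6024, 6406 and 5915 in young EVs. CarLTR5 had 7739, 8902, 8344 and 6377 in CCD EVs and 8757, 10816, 11754 and 12538 in old EVs. The groups overlapped in both, with log2 differences of -0.48 ± 0.16 and -0.48 ± 0.17 (SE). LTR37-int was at -0.43 ± 0.16. In cortex the same LTR37-int had 694, 530.4 and 746 in CCD libraries and 379, 434 and 356 in old libraries, with no overlap in the other direction, and 400.2, 938 and 354.3 in young libraries.

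Old and young EVs had a median log2 difference of 0.16 over the families, beside 0.09 over all features, with 111 of 141 above 0. None passed limma's test after adjustment (0.0% of all features), 3 were higher at an unadjusted p under 0.05 and none lower, beside 0.768% and 0.492% of all features, and no family had groups apart, beside 0.529% and 0.393%. The 3 families were LTR37B at 0.48 ± 0.16 (SE), MER110-int at 0.55 ± 0.20 and CarERV4c_CF-int at 0.41 ± 0.19, the first with old libraries at 6925 to 10781 and young libraries at 5915 to 7441. These values depended on single libraries. The median was 0.0046 without young EV_502 and 0.33 without young EV_270. At an unadjusted p under 0.05 there were 14 families higher and 9 lower without young EV_270, and 1 higher without old EV_264. The difference of LTR37B was 0.39 without old EV_519 and 0.60 without old EV_250. CCD and young EVs had a median of -0.07, beside -0.16 over all features, and again none passed limma's test (0.0%). No family had an unadjusted p under 0.05 in CCD against young EVs, beside 0.144% of all features higher and 2.7% lower, and none had groups apart, beside 0.129% and 2.52%.

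Single EV libraries held very high values of a few families. MER31-int, an ERV1 internal part, had 80526 normalised counts in CCD EV_358, against 8717 to 12417 in the other CCD EV libraries and 8254 to 13685 in old and young EVs. MER92-int had 33406 in young EV_502, against 4663 to 7306 elsewhere. MER34C_CF had 46330 in young EV_353, against 8526 to 15227 elsewhere. MamGypLTR3 had 32852 in old EV_264 and 21323 in young EV_377, against 2630 to 8869 in the others. These 4 were the families whose highest EV library exceeded 3 times the median of the others, which for cortex was so for CarLTR3, EUTREP15 and MER92A. Such values set group means: MER31-int was at a log2 difference of 0.79 ± 0.51 (SE) in CCD against young EVs, and at 0.061 without CCD EV_358. For MamGypLTR3 the difference between CCD and old EVs was -1.41 ± 0.58, and -0.84 without old EV_264.

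The same libraries had such values outside these families. In CCD EV_358, 26 of the genes tested exceeded 3 times the second highest library, and among them was RTL6, a host gene derived from a Gypsy-like element, at 17292 normalised counts against 224 to 478 in the 11 other EV libraries. LTR65 was also highest in CCD EV_358, at 16033 against 3830 to 8033 elsewhere. DNMT3B, a DNA methyltransferase, had 1506 there against 218 to 526 elsewhere. RTL6, LTR65 and DNMT3B were singled out after their values were seen. Across the 12 EV libraries 7 to 55 genes and 0 to 3 repeat families per library exceeded 3 times the second highest value.

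**Figure D5:**
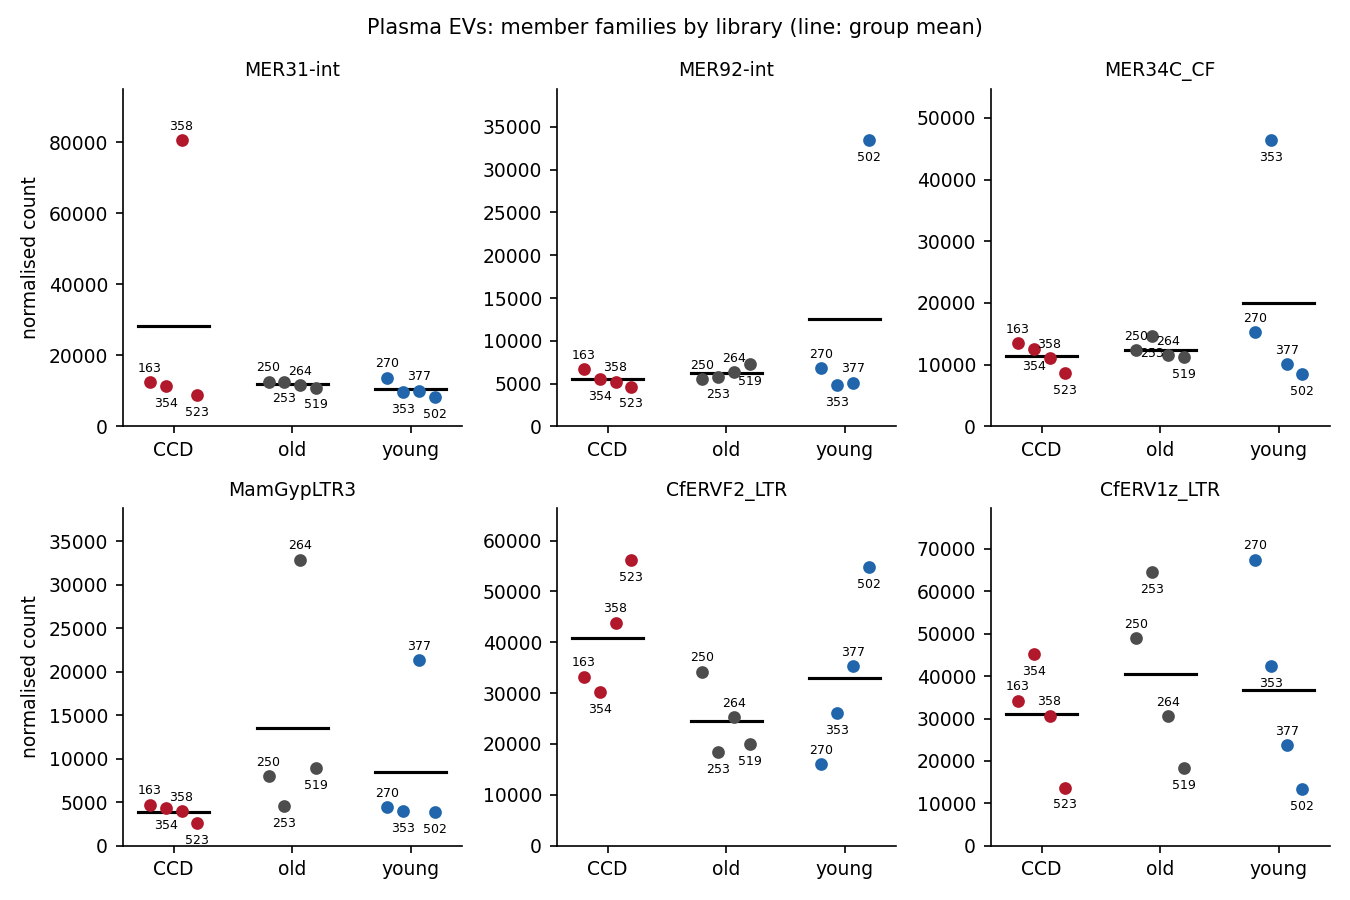
Normalised counts of 6 families in each EV library, with axes from 0; points are libraries with their label numbers and lines are group means. MER31-int, MER92-int and MER34C_CF are high in 1 library each and MamGypLTR3 in 2, while CfERVF2_LTR is highest and CfERV1z_LTR lowest in CCD EV_523 and young EV_502.

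Of the EV libraries, CCD EV_523 and young EV_502 stood apart from the others. These 2 and old EV_519 are the EV libraries without a cortex library of the same number. On the log2 scale against its own mean, the median family lay at -0.51 in CCD EV_523 and -0.42 in young EV_502. It lay at -0.14 in old EV_519, the lowest of the old EVs, and at -0.19 in young EV_377. The median over all features tested was 0.09 in old EV_519. It was lowest in CCD EV_523, at -0.37, and in young EV_502, at -0.28. The part of the missing cortex libraries was not tested. CCD EV_523 and young EV_502 held the 2 lowest values for 94 of 141 families. They held the 2 highest for 10, among them MER34A_CF, MER90a, CfERVF2_LTR, MER34-int, LTR81 and MamGypLTR2b. CfERVF2_LTR had 33259, 30183, 43836 and 56233 normalised counts in CCD EVs, 34199, 18332, 25272 and 20001 in old EVs and 16003, 26128, 35325 and 54783 in young EVs, where the last value of the CCD and young groups is that of the library named. CfERV1z_LTR had 34191, 45205, 30707 and 13685 in CCD EVs, 48923, 64533, 30596 and 18318 in old EVs and 67461, 42449, 23688 and 13262 in young EVs. MER34-int, at 27306, 26536, 36190 and 70833 in CCD EVs and 23666, 16507, 19975 and 21888 in old EVs, had a log2 difference of 0.86 ± 0.38 (SE; limma adjusted p = 0.766), which was 0.55 without CCD EV_523. Without that library the median log2 difference of all 141 families in CCD against old EVs was -0.087.

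Genes that act on LTR elements, or derive from them, were examined as 3 lists. The first holds 27 genes of silencing, such as the TRIM28 complex, the HUSH complex and DNA methyltransferases, and all 27 were tested in both tissues. In CCD against old cortex their median log2 difference was -0.20, beside -0.08 over all features, with 4 of 27 lower and none higher at an unadjusted p under 0.05, near the 10.6% of all features that were lower, and none passed limma's adjusted test. The 4 were SMARCAD1, a chromatin remodeller, MORC3, an ATPase that represses endogenous retroviruses in mouse cells, KDM1A, a histone demethylase, and MPHOSPH8, a subunit of HUSH. SMARCAD1 had 372, 352 and 335 normalised counts in CCD cortex, against 506, 566 and 515 in old cortex, and MORC3 had 205, 342 and 336 in CCD cortex, against 439, 543 and 476 in old cortex. KDM1A had 1122, 1044 and 1208 in CCD cortex, against 1449, 1537 and 1545 in old cortex. CCD libraries lay below old libraries for all 4, with log2 differences of -0.58 ± 0.21, -0.75 ± 0.28, -0.43 ± 0.18 and -0.61 ± 0.26 (SE) in the order named. The 4 were picked by their p in the same comparison, so the lack of overlap adds nothing to that p. The 21.9% of all features that lay so were not picked in this way and are no background for it. TRIM28 itself averaged 2839 ± 95.1 in CCD cortex and 3016 ± 128 in old cortex (SD, n = 3 each).

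The second list holds 16 genes that restrict or clear retroviral RNA and DNA, of which 14 were tested in cortex and 16 in EVs. In CCD against old cortex the median was -0.14, none passed limma's adjusted test, and an unadjusted p under 0.05 was found for 1 of 14 genes that was higher and 2 that were lower, beside 4.45% and 10.6% of all features. MOV10, an RNA helicase that limits retroviruses and retrotransposons, had 596, 883 and 961 normalised counts in CCD cortex, 376.7, 264.7 and 373.5 in old cortex and 679, 988 and 648 in young cortex. Old libraries were below all others: the log2 difference was 1.25 ± 0.27 (SE) in CCD against old, with a limma adjusted p of 0.286, and -1.18 ± 0.27 in old against young, with an adjusted p of 0.438. MX1, an interferon-induced GTPase, had 2247, 1767 and 2443 in CCD cortex, 3966, 3545 and 4029 in old cortex and 4020.5, 2201 and 4637 in young cortex. ADAR, which edits double-stranded RNA, was at a log2 difference of -0.70 ± 0.26 in CCD against old. BST2, which tethers budding virus particles to the cell, had 45.3, 55.5 and 290.1 in CCD cortex, 57.6, 51.4 and 53.98 in old cortex and 170.6, 423 and 414 in young cortex, with a log2 difference of -2.49 ± 0.63 in old against young and a limma adjusted p of 0.464. Its 3 highest libraries, CCD cortex_358, young cortex_353 and young cortex_377, are those with the high sums of meningeal and fibroblast markers. Without them the difference was -1.63, which rests on 1 young library, young cortex_270, at 170.6.

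The third list holds 26 host genes derived from LTR elements, of which 15 were tested in cortex and 19 in EVs. In CCD against old cortex the median was -0.35, none passed limma's adjusted test, and an unadjusted p under 0.05 was found for 4 of 15 genes, all lower, beside 10.6% of all features lower and a median of -0.08 over all features. PNMA8A had 316, 339 and 296 normalised counts in CCD cortex, 598, 790.2 and 870.5 in old cortex and 508, 345 and 1246 in young cortex, a log2 difference of -1.23 ± 0.39 (SE) against old. RTL5 had 4888, 4030.4 and 5081 in CCD cortex and 7364, 6479 and 8166 in old cortex, at -0.65 ± 0.21. PNMA2, whose protein forms capsids in mouse neurons, was at -0.74 ± 0.25, and PNMA1 at -0.43 ± 0.17. CCD libraries lay below old libraries for all 4 of these genes. The 4 were picked by their p in the same comparison, so this adds nothing to that p. The 21.9% of all features that lay so were not picked in this way and are no background for it. ARC, a Gypsy-derived gene of synaptic plasticity, averaged 950 ± 387 in CCD cortex and 1067 ± 389 in old cortex (SD, n = 3 each). The neuronal marker sum given above was lower in the same CCD libraries, and its part was not tested.

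In old against young cortex the medians of the 3 lists were 0.06 for silencing, 0.05 for restriction and 0.11 for host genes, with 1, 0 and 2 genes higher in that order and 0, 2 and 1 lower at an unadjusted p under 0.05, beside 2.84% and 3.83% of all features. In CCD against young cortex they were -0.11, -0.20 and -0.34, with 0, 1 and 0 higher and 2, 3 and 2 lower, beside 4.55% and 8.52% of all features. In CCD against old EVs they were -0.33, -0.32 and -0.20, beside -0.27 over all features, with none higher and 3 lower in each list, beside 0.756% and 5.35% of all features. KDM1A averaged 115 ± 15.97 in CCD EVs and 177 ± 15.7 in old EVs, and MOV10 201.03 ± 20.4 in CCD EVs and 299 ± 32.1 in old EVs (SD, n = 4 each), at log2 differences of -0.62 ± 0.20 and -0.57 ± 0.19 (SE; limma adjusted p = 0.766 for both). MOV10 was thus higher in CCD than in old cortex and lower in CCD than in old EVs in these libraries, and neither difference passed. In old against young EVs the medians were 0.11, 0.13 and 0.00 with no gene at an unadjusted p under 0.05, and in CCD against young EVs -0.11, -0.21 and -0.25 with none higher and 0, 1 and 1 lower, beside 0.144% and 2.7% of all features.

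The rule's threshold left out 10 families in cortex and 1 in EVs. Just above it in cortex were CarERV4c_CF-int at a mean of 10.8 normalised counts, MER92A at 14.9 and CarLTR1A1C at 20.97, and just below it MER83B-int at 5.03, MER95 at 4.86 and MER83A-int at 1.12. The other 7 left out of cortex had means of 0 to 1.08. In EVs LTR73 at 15.2, X1_LR at 22.2 and LTR77 at 25.3 were just above, and LTR58 at 9.76 was below. The fewest reads of any cortex member in a library was 0, for CarERV2c1_LTR, and the 132 families held 26324 to 39484 reads per cortex library, against 867507 to 1505971 on 141 families per EV library.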

How the data were processed

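Per the labels, polyadenylated RNA of cortex and total RNA of EVs were read as pairs of 150 bp. Per the submitters' processing notes, STAR and DESeq2 were used; build, annotation, counting tool and handling of strand and of multi-copy reads were not given in the sources used here. What the authors deposited is a signal, 1 table per tissue: normalised counts per gene or repeat family with equal totals per library; 9 cortex and 12 EV columns were used and 0 left out. Dividing by a factor per library gave back whole reads (tolerance 0.01), from which depth and shares were computed. Counting error is small for families with many reads; the number of libraries limits the precision.

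Features with a mean of at least 10, 19710 in cortex and 32539 in EVs, were tested on log2 of the normalised count plus a pseudocount of 1, which understates changes of low features, with limma 3.58.1 in R 4.3.3 (3 groups in 1 fit, trend, two-sided), Benjamini-Hochberg adjusted over all features, threshold 0.05, and tested on simulated data. Alternatives included edgeR 4.0.16 and DESeq2 1.42.0 on the recovered reads. Members, lists and tests were chosen with earlier results of these data known. Per comparison the text names families with an adjusted p under 0.05 or, where fewer than 5 pass in a direction, those of smallest p up to 5 per direction, the 5 highest per table, the 2 highest per label, those nearest the threshold, and up to 4 genes per list; others are named beside them as relatives or for single libraries, after their values were seen. No repeat sequence was at hand, so none is shown.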

Additional observations from a re-analysis of the deposited data

Results flagged for a closer look

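The values here are EV libraries that lie far from the other 3 of their group. Of 423 pairs of a member family and a group, 23 had such a library, and of 186 pairs of a list gene and a group 9 had one, close to the 1 in 20 that chance gives. Groups of 3 cortex libraries were not examined in this way. MER31-int had 80526 normalised counts in CCD EV_358, against 8717 to 12417 in the other CCD EVs. RTL6 had 17292 in CCD EV_358, against 305 to 464, and DNMT3B had 1506 in CCD EV_358, against 220 to 373. MamGypLTR3 had 32852 in old EV_264, against 4563 to 8869 in the other old EVs, and 21323 in young EV_377, against 3892 to 4447 in the other young EVs. LTR91 had 8328 in old EV_253, against 5945 to 6019. MER92-int had 33406 in young EV_502, against 4811 to 6792. CarLTR11b was low in young EV_502, at 1875 against 3872 to 4240. No cause of these values was tested.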

How the results depend on the processing

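No paired analysis was possible because the groups compared within a tissue share no label number; numbers recur only between the tissues, which were not tested against each other. The count of member families with an adjusted p under 0.05 was 0 in each comparison and stayed 0 under the alternatives run, other than in CCD against old cortex, where it was 3 in a fit of the compared groups alone (9.18% of all features), 7 with library weights (8.49%), 2 by DESeq2 (CarLTR3 and LTR109B; 0.913%), 21 without CCD cortex_358 and both of young cortex_353 and cortex_377, which leaves 1 young library assumed to vary like the others (15.9% of families and 15.8% of all features), and 0 to 1 leaving out 1 library, the 1 being LTR109B without young cortex_377 (3.93%); in CCD against young cortex it was 1 by DESeq2 (CarLTR3; 1.1%). Families higher at an unadjusted p under 0.05 in CCD against old cortex, 18 as reported, were 2 with scaling to repeat reads, 31 with TMM, 28 in the fit of the compared groups, 33 with library weights, 34 by edgeR, 39 by DESeq2, 45 without the 3 libraries named, and 7 to 28 leaving out 1 library: 7 without CCD cortex_163, CCD cortex_354 or old cortex_253, 8 without old cortex_250 and 28 without CCD cortex_358 or young cortex_377. In CCD against young cortex, 17 as reported, they were 1 with scaling to repeat reads, 8 in the fit of the compared groups, 6 with library weights, 29 by DESeq2 and 4 to 26 leaving out 1 library: 4 without CCD cortex_163, 5 without CCD cortex_354, 6 without young cortex_377 and 26 without young cortex_353. In CCD against old EVs, 6 higher and 4 lower as reported, there were 12 and 1 by edgeR and by DESeq2, 10 and 0 with TMM, 8 lower with library weights, and 0 to 8 higher and 2 to 7 lower leaving out 1 library. In old against young EVs, 3 and 0 as reported, there were 17 and 7 with library weights, and 14 and 9 without young EV_270. Scaling to repeat reads turned the median log2 difference to -0.10 in CCD against old cortex and to -0.042 in CCD against young cortex, and in CCD against old EVs TMM gave 0.052 and edgeR 0.044. Not all named families were followed through the alternatives: in CCD against old cortex CfERV1-int, CfERVF2-int, MamGypsy2-I, LTR91, LTR81AB and LTR81B, among others, were not. Of those followed, scaling to repeat reads turned CarLTR1-int to -0.27 and CarERV4-int to -0.15 in CCD against old cortex. Leaving out the 3 libraries, with 1 young library left, turned CfERVF2-int to -0.082 in old against young cortex. The other families followed kept their direction in every alternative run. The cause was not tested. The gene lists were taken through the same alternatives after the data had been seen: the named genes kept their direction, MOV10 passed in CCD against old cortex by DESeq2 (adjusted p = 0.0054), MOV10 and BST2 passed in old against young cortex by DESeq2 (adjusted p = 0.0083 and 0.0065), MOV10, MX1, ADAR, PNMA8A, RTL5 and PNMA2 passed in CCD against old cortex in the fit of the compared groups and with library weights, MOV10, PNMA8A and RTL5 without young cortex_377, and all genes named in CCD against old cortex but SMARCAD1 without the 3 libraries; list medians near 0 turned sign under some scalings and left-out libraries. Depth limits the low families of cortex: CarERV4c_CF-int had 3 reads in its lowest library and MER92A 6.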
